A study of Mus musculus with 15 samples.

Results

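Microglia sorted from mouse brain 60 days after controlled cortical impact were set against microglia from sham mice. The comparison took every sample labelled 60 dpi (days post-injury) and every sample labelled sham, 3 and 4 samples, so it used 7 of the 15 samples of the series. The remaining 8 samples, 4 at 2 dpi and 4 at 14 dpi, entered the same fit. Samples are numbered within each group in the order of their records, and the numbers pair nothing across groups.

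The 60 dpi samples came from male C57BL6J mice that had received a controlled cortical impact, in which a pneumatic tip strikes the exposed parieto-temporal cortex through a craniotomy. The sham samples came from male C57BL6J mice of the same supplier, and by the methods they were the shams of the 2 dpi experiment, so they were not matched to 60 dpi in time since surgery. Their age is given as 3 months in one place and 2 months in another. Mice were assigned at random to sham or injury only for 2 dpi. In every group the brain was perfused and dissociated, and cells with high CD11b and low to intermediate CD45 on their surface were sorted. No label ties a sample to a single mouse, so a p-value here sets a difference against the spread over these libraries, which may be partly technical. As the RNA came from bulk sorted cells, fewer cells of a type and less RNA per cell cannot be told apart.

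Microglia are the resident macrophages of the brain parenchyma. They sense injury through Toll-like, purinergic, Fc and chemokine receptors, clear debris with the help of complement, and signal through chemokines and cytokines. On activation they can load peptides on class II molecules of the major histocompatibility complex (MHC) for display to CD4 T cells, a task for which the invariant chain Cd74 guides the assembly of the class II dimers. Their resting state is marked by genes such as the fractalkine receptor Cx3cr1 and the colony-stimulating factor receptor Csf1r.

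Of the 10 largest rises at 60 dpi 4 were class II genes, and the promoters of a pair of them are printed because these genes moved together. The windows run from 250 bases before to 50 bases after the RefSeq transcription start, 5′ to 3′ on the strand of the gene, in the build GRCm38.p6. H2-Aa lies at chr17:34287774-34288073 on the minus strand and H2-Eb1 at chr17:34305617-34305916 on the plus strand. Psmb9, a proteasome subunit that rose at 60 dpi, lies at chr17:34187281-34187580 on the minus strand, and 275 bases of its window are shared with the divergent window of the peptide transporter Tap1, which rose as well. In these 3 the capitals mark the letters ATTGG or their reverse complement CCAAT, the core of the Y box of class II promoters. Cybb, the catalytic subunit of the phagocyte NADPH oxidase and another large rise, lies at chrX:9469275-9469574 on the minus strand, and there the capitals mark TTTC, any pair of bases and TTTC, or its reverse complement, the core of an interferon-stimulated response element.
H2-Aa: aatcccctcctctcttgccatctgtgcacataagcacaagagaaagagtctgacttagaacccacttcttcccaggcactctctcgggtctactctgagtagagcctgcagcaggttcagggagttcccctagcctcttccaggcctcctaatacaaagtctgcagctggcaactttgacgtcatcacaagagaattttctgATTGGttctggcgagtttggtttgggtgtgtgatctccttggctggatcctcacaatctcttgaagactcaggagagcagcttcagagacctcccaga
H2-Eb1: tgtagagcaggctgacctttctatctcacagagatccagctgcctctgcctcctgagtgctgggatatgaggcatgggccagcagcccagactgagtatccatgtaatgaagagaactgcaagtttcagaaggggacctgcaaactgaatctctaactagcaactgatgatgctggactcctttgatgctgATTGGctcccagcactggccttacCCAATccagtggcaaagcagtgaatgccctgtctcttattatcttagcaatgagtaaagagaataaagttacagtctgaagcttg
Psmb9: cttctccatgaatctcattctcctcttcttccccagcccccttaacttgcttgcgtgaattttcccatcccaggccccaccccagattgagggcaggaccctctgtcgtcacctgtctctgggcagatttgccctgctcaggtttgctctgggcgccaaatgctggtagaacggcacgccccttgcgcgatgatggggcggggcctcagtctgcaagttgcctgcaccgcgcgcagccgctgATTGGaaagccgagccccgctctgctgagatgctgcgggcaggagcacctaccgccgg
Cybb: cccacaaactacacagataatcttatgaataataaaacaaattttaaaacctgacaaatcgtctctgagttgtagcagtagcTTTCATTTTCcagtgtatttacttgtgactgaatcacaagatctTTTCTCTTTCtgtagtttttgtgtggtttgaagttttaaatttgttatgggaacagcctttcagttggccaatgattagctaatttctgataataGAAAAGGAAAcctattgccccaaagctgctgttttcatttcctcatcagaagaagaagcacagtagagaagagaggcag
The H2-Aa window held 1 Y box core, 48 bases before the start, and the H2-Eb1 window held 2, starting 59 and 35 bases before it. In the Psmb9 window the core began 8 bases before the start. The Cybb window held 3 matches of the interferon element, 168, 124 and 29 bases before the start. Over the 407 of 547 panel genes with a window, the Y box core was found on either strand in 28.6% of the 63 genes called higher, 30% of the 30 called lower, and 30.7% of all 407, against 37.9% of the 27025 genes of the table. The interferon element was in 4.76% of those called higher, 3.33% of those called lower, 6.63% of the panel genes and 3.49% of the table. TTCNNNGAA, the core bound by STAT dimers, which reads the same on both strands, was in 11.1%, 6.67%, 13% and 8.47% of the same windows. Matches of different motifs overlapped in 2 panel windows. None of these cores was more frequent in the genes called than in the panel, and a match is a description and not a bound site.

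RNA was counted on the nCounter platform, which tallies colour-coded probes hybridised to single molecules, with a panel of 547 immune genes, 14 housekeeping genes, 6 positive and 8 negative controls. The total over the immune genes was 169784 to 226892 counts in the 60 dpi samples and 66905 to 280528 counts in the sham samples. A count stood above background when it exceeded its sample's negative-control mean by over 2 SD, and 359 genes did so in at least 3 of the 15 samples and were tested. Of the 188 left untested, 177 were above background in no 60 dpi and no sham sample. All 3 samples at 60 dpi were read in a second instrument run and all other samples in the first, so run and time point cannot be told apart. Where injured samples are named below, those at 60 dpi are meant. The background limit was 57.1 to 67.7 counts at 60 dpi and 26.1 to 34.0 counts in sham. The negative control NEG_B read 50, 60 and 72 counts at 60 dpi and 7 to 10 counts in sham, and the 156 genes above background in no sample had a median of 15 to 18 counts at 60 dpi and 9 to 11 counts in sham. Log2 normalized counts correlated across genes at 0.956 to 0.975 among the 60 dpi samples, 0.943 to 0.969 among the sham samples and 0.796 to 0.886 between them, while the 2 dpi and 14 dpi samples of the first run correlated with sham at 0.874 to 0.957. Values below are normalized counts, the raw count divided by a factor of the sample from its positive controls and housekeeping genes. Each log2 fold change is of 60 dpi over sham with its standard error (SE), and each adjusted p is from edgeR's quasi-likelihood test with Benjamini-Hochberg adjustment over the 359 genes.

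At 60 dpi, 90 of the 359 genes were higher than in sham (25.1%) and 40 were lower (11.1%). The median log2 fold change over the 359 was 0.12. The shares of 25.1% higher and 11.1% lower are the background for the counts of each gene list below. Every 60 dpi sample lay above every sham sample for 85 genes (23.7%) and below for 42 (11.7%). Of the 90 higher genes 72 had such separate groups, 58 rose at least 2-fold and 13 at least 4-fold, and of the 40 lower genes 33 had separate groups, 17 fell at least 2-fold and 6 at least 4-fold. Over all tested genes, the 60 dpi samples lay above every sample of the first run for 48 (13.4%) and below every one for 23 (6.41%), and this held for 44 of the higher and 22 of the lower genes. Among the higher genes 27 had means under 100 normalized counts in both groups, close to the raised background of the second run, and 6 had no sham sample above background.

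The split between higher and lower genes moved with the scaling. TMM factors gave 76 higher and 67 lower genes, DESeq2 under its own scaling gave 81 and 77, and there were 77 and 59 with the negative-control mean subtracted, and 172 and 21 with the geometric mean of the housekeeping genes. Positive-control factors alone gave 48 and 18, so that 46 of the 90 and 24 of the 40 genes no longer passed. Single housekeeping genes themselves stood apart between the groups, with Eef1g at -1.25 and G6pdx at 0.56 on the log2 scale of 60 dpi over sham. Of the higher genes 54 passed whichever library was left out, and 36 passed in every alternative in which they were tested, libraries left out included, against 25 and 16 of the lower genes.

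**Figure D1:**
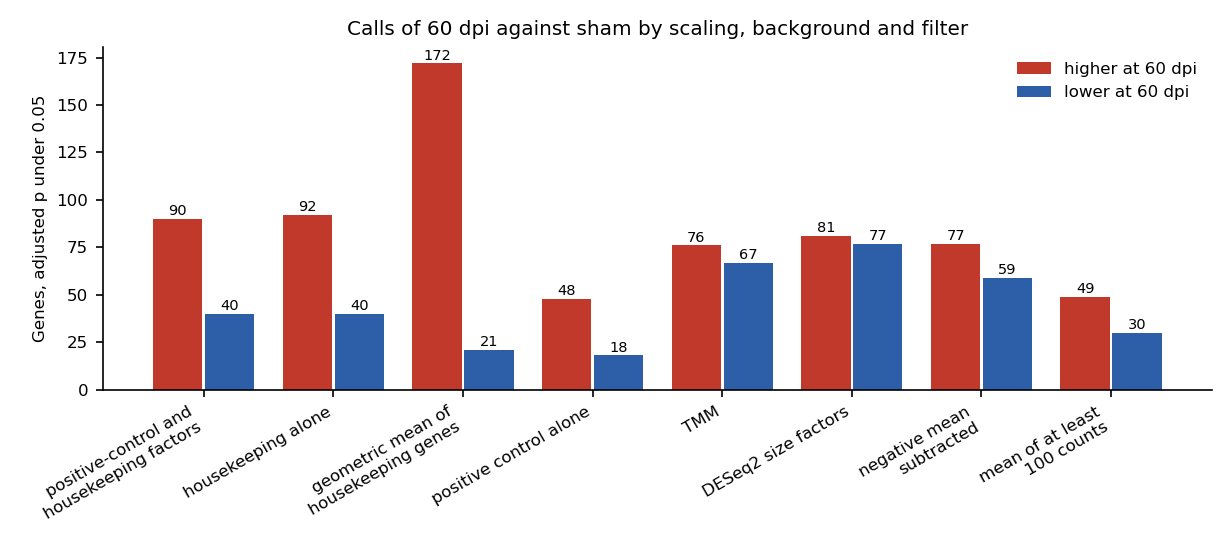
Number of genes higher and lower at 60 dpi than in sham (adjusted p under 0.05) under 8 ways of scaling, background treatment or filtering of the counts. The 90 higher and 40 lower genes of the reported fit became 172 and 21 with the geometric mean of the housekeeping genes and 48 and 18 with positive-control factors alone.

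Cd74 and the class II chains H2-Aa, H2-Ab1 and H2-Eb1 rose at 60 dpi. Of the 10 tested genes of MHC class II presentation, 5 rose and none fell, and their median log2 fold change was 0.69. Cd74, the invariant chain, read 6148, 5411 and 5663 normalized counts in the 60 dpi samples, against 830.2, 1065, 837 and 631 in the sham samples, a log2 fold change of 2.77 ± 0.20 (SE, adjusted p = 4.59e-09). H2-Eb1, a class II beta chain, read 1562, 1387 and 1549 at 60 dpi and 208, 348, 208 and 152 in sham, a log2 fold change of 2.72 ± 0.25 (adjusted p = 1.63e-07). All 3 injured samples were several times above the highest sham sample for both genes, and they lay close to one another. The alpha chain H2-Aa and its beta partner H2-Ab1 behaved in the same manner. H2-Aa read 1399, 1196 and 1413 at 60 dpi and 266, 324, 174 and 165 in sham, with a log2 fold change of 2.54 ± 0.23 (adjusted p = 1.03e-07). H2-Ab1 read 1288, 1176 and 1303 at 60 dpi and 215, 376, 202 and 179 in sham, with a log2 fold change of 2.38 ± 0.23 (adjusted p = 2.69e-07). For all 4 genes the 60 dpi samples also lay above every sample of the first run, and the call held in every alternative and with every library left out. Against 14 dpi, when these 4 genes were at log2 fold changes of 1.15, 0.83, 0.97 and 0.95 over sham, they were higher at 60 dpi by 1.62, 1.89, 1.57 and 1.42 on the log2 scale (adjusted p at most 8.73e-05).

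The rest of the class II list did not pass, apart from Cd40. With the geometric mean of the housekeeping genes 9 of the 10 tested members were called higher. H2-DMa, which helps to load peptide onto class II molecules, averaged 332 ± 34.02 normalized counts at 60 dpi and 300.4 ± 44.3 in sham (SD, n = 3 and 4), with an adjusted p of 0.56. Ctss, the protease that trims the invariant chain, averaged 6721 ± 486 at 60 dpi and 6507 ± 867 in sham (adjusted p = 0.841). The co-stimulatory ligands Cd80 and Cd86 had log2 fold changes of 0.42 and -0.21 (adjusted p = 0.205 and 0.513), and Ciita, the class II transactivator, was above background in no sample of either group. The remaining call, the co-stimulatory receptor Cd40, was not above background in any 60 dpi sample either, at 43.7, 31.1 and 49.8 against 39.2, 15.6, 14.97 and 19.9 in sham, and it was lost with TMM factors among other alternatives. Nor did it pass without 60 dpi samples 1 or 3 or sham samples 2, 3 or 4 (adjusted p up to 0.13).

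**Figure D2:**
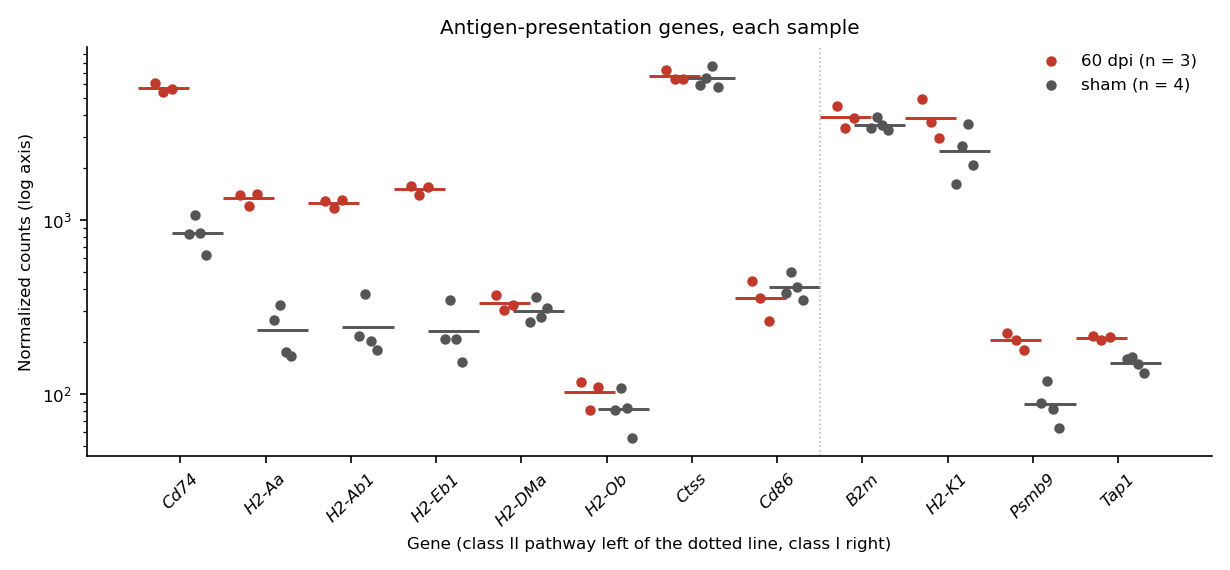
Normalized counts (log axis) of antigen-presentation genes in each sample, 60 dpi to the left of sham in each pair, with bars at the arithmetic means; class II genes stand to the left of the dotted line and class I genes to its right. Cd74, H2-Aa, H2-Ab1 and H2-Eb1 at 60 dpi lie above every sham sample, while B2m overlaps with sham.

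The class I pathway, which shows peptides from the cytosol to CD8 T cells, changed in part. Of 12 tested genes of MHC class I and the proteasome 4 rose (33.3%, against 25.1% of all tested genes) and 1 fell. Their median log2 fold change was 0.10. Psmb9, the interferon-inducible proteasome subunit, read 225, 205 and 179.8 normalized counts at 60 dpi and 88.1, 118, 81.8 and 63.3 in sham, with a log2 fold change of 1.23 ± 0.20 (adjusted p = 0.000128). Tap1, which carries peptides into the endoplasmic reticulum and shares the divergent promoter region, read 214, 205 and 211 at 60 dpi and 159, 162, 148 and 132 in sham, with a log2 fold change of 0.49 ± 0.14 (adjusted p = 0.00931). The groups did not overlap for either gene. The regulatory subunit Psmd7 rose by 0.70 ± 0.18 (adjusted p = 0.00494) and the heavy chain H2-K1 by 0.64 ± 0.24 (adjusted p = 0.0427) on the log2 scale, with overlapping groups for H2-K1, while Psmc2 fell by 0.41 (adjusted p = 0.0468). B2m, the light chain of class I, averaged 3918 ± 572 at 60 dpi and 3504 ± 271 in sham (SD, n = 3 and 4, adjusted p = 0.493). None of these 5 calls held with positive-control factors alone. With the geometric mean of the housekeeping genes 8 of the 12 were called higher. Single libraries decided H2-K1 and Psmc2, with losses for H2-K1 without 60 dpi samples 1 or 2 or sham samples 1, 2 or 4 (adjusted p up to 0.215) and for Psmc2 without 60 dpi samples 1 or 2 or sham samples 1, 3 or 4 (adjusted p up to 0.287).

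Chemokines rose in a small group. Of 18 tested chemokines 7 rose (38.9%, against 25.1% of all tested genes) and 1 fell, with a median log2 fold change of 0.12. Ccl7, a monocyte attractant, read 293, 263 and 128 normalized counts at 60 dpi and 39.2, 23.4, 36.4 and 42.7 in sham, a log2 fold change of 2.67 ± 0.39 (adjusted p = 5.34e-05). Ccl2, the main ligand of the monocyte receptor Ccr2, read 1025, 888 and 464 at 60 dpi and 264, 279, 243 and 344 in sham, a log2 fold change of 1.49 ± 0.24 (adjusted p = 0.000129). For both the groups did not overlap, and 60 dpi sample 3 was the lowest of the injured samples. Ccl22, an attractant of regulatory and Th2 cells, read 169.6, 115 and 135 at 60 dpi and 64.6, 65.5, 20.3 and 28.7 in sham, a log2 fold change of 1.73 ± 0.37 (adjusted p = 0.00127). Cxcl12, the ligand of Cxcr4, read 558, 295 and 961 at 60 dpi and 121, 108, 188 and 172 in sham, a log2 fold change of 2.02 ± 0.43 (adjusted p = 0.00226), with the highest value in 60 dpi sample 3. In sham no sample was above background for the eosinophil attractant Ccl11, the Cxcr3 ligand Cxcl11 or the platelet product Ppbp. Ccl11 was at least 2.05-fold higher at 60 dpi, at 77.9, 71.995 and 67.6 against 31.3, 23.4, 11.2 and 13.2 (adjusted p = 0.000118). Cxcl11 was at least 2.12-fold higher (adjusted p = 0.00459). Ppbp was called higher (adjusted p = 0.00472), at 59.7, 49.9 and 60.5 at 60 dpi. Its 60 dpi sample 1 was itself not above background, so no fold is given. The bounds for Ccl11 and Cxcl11 set the 60 dpi mean against the mean background limit of the sham samples, not the higher limit of the second run. Both genes passed the background filter only because their 60 dpi samples counted.

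The inflammatory chemokines Ccl3 and Ccl4 did not pass at 60 dpi. Ccl3 averaged 3982 ± 1477 normalized counts at 60 dpi and 4053 ± 433 in sham (SD, n = 3 and 4, adjusted p = 0.959), and Ccl4 averaged 2853 ± 1222 at 60 dpi and 3223 ± 381 in sham (adjusted p = 0.666). The interferon-inducible Cxcl10 averaged 238 ± 108 at 60 dpi and 357 ± 166 in sham (adjusted p = 0.404). Ccl5, a lymphocyte attractant that had been higher than sham by 2.84 on the log2 scale at 14 dpi, was above background in no 60 dpi sample. Ccl12, a further monocyte attractant, was the fall, at 507, 404 and 235 at 60 dpi and 909, 622, 479 and 846 in sham, with overlapping groups and a log2 fold change of -0.90 ± 0.26 (adjusted p = 0.00997). It was lost when the positive controls alone set the scale, as Ccl2 was, and without 60 dpi sample 3 (adjusted p up to 0.0635).

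Among 11 tested chemoattractant receptors 4 rose (36.4%, against 25.1% of all tested genes) and 2 fell, with a median log2 fold change of 0.36. Cxcr4, the receptor of Cxcl12, read 176, 176 and 174 normalized counts at 60 dpi and 43.1, 81.1, 28.9 and 52.2 in sham, with a log2 fold change of 1.81 ± 0.29 (adjusted p = 0.000128). Ccr2, the receptor of Ccl2 and Ccl7 on monocytes, read 68.3, 79.4 and 110.3 at 60 dpi and 39.2, 37.4, 20.9 and 21.3 in sham, with a log2 fold change of 1.60 ± 0.31 (adjusted p = 0.000526). Ltb4r1, the leukotriene B4 receptor, read 175, 203 and 137 at 60 dpi and 104, 77.95, 32.6 and 61.1 in sham, with a log2 fold change of 1.37 ± 0.32 (adjusted p = 0.00236). The groups were separate for all 3, and the injured samples agreed to within 2 normalized counts for Cxcr4. Ccr9, an intestinal homing receptor, rose by 1.05 ± 0.40 on the log2 scale (adjusted p = 0.0477). Gpr183, an oxysterol receptor, fell by 0.75 (adjusted p = 0.0106) and Cx3cr1 by 0.52 (adjusted p = 0.0218). Both falls were lost with positive-control factors alone. Calls were also lost for Ccr9 without 60 dpi samples 1, 2 or 3 or sham samples 3 or 4 (adjusted p up to 0.137), for Gpr183 without 60 dpi sample 3 (adjusted p up to 0.0633) or for Cx3cr1 without 60 dpi samples 2 or 3 or sham samples 2 or 3 (adjusted p up to 0.077).

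Complement moved in both directions. C3, the component on which all complement routes meet, read 198, 310.1 and 226 normalized counts at 60 dpi and 60.7, 74.8, 17.6 and 64.01 in sham, with separate groups and a log2 fold change of 2.24 ± 0.42 (adjusted p = 0.000802). C4a read 147, 144 and 189.6 at 60 dpi and 95.9, 77.95, 64.7 and 46.4 in sham, a log2 fold change of 1.21 ± 0.25 (adjusted p = 0.00114), also with separate groups. Cfb, the factor B that builds the alternative convertase, was not above background in any 60 dpi sample, at 8.53, 8.18 and 9.79 against 54.8, 74.8, 55.6 and 61.8 in sham, and was at least 1.07-fold lower (adjusted p = 2.62e-07). The C1q chains, which start the classical route, did not pass, with C1qa at 4456 ± 389 at 60 dpi and 4507 ± 356 in sham (SD, n = 3 and 4, adjusted p = 0.956) and C1qb at 5643 ± 714 and 6125 ± 389 (adjusted p = 0.535). With the geometric mean of the housekeeping genes C1qa was called higher, at a log2 fold change of 0.36. Of the 10 tested complement genes 4 rose and 2 fell, with a median of 0.15, and the other rises were properdin (Cfp) and clusterin (Clu), with overlapping groups. C4a was lost with positive-control factors alone. With libraries left out, calls were lost for Cfp without 60 dpi samples 1, 2 or 3 or sham samples 1, 3 or 4 (adjusted p up to 0.149) or for Clu without 60 dpi sample 3 or sham samples 2, 3 or 4 (adjusted p up to 0.552), which read 187, 123 and 788 at 60 dpi and 168, 125, 160.4 and 57.4 in sham, with 60 dpi sample 3 far above all others.

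Beyond these lists, large rises were seen for single genes of defence and of T cell biology. Cybb read 352, 579 and 417 normalized counts at 60 dpi and 50.9, 82.6, 47.6 and 129 in sham, with separate groups and a log2 fold change of 2.52 ± 0.37 (adjusted p = 0.000128). Tnfrsf8, the receptor CD30, read 99.2, 76.9 and 72.97 at 60 dpi and 17.6, 18.7, 7.49 and 8.09 in sham, was not above background in sham and was at least 2.35-fold higher (adjusted p = 1.11e-05). Tlr8, an endosomal receptor for RNA, read 72.5, 66.3 and 63.2 at 60 dpi and 19.6, 17.1, 10.7 and 12.5 in sham, was not above background in sham and was at least 1.91-fold higher (adjusted p = 1.54e-05). All 3 genes held their calls in every alternative and with every library left out, and each of these settings crosses the runs. Tnfrsf8 and Tlr8 lay close to the raised background of the second run. Their bounds set the 60 dpi mean against the mean background limit of the sham samples, 35.3 normalized counts, and not the mean limit of 57.7 at 60 dpi. Both passed the background filter only because their 60 dpi samples counted, so their p-values are not independent of the rise. Il13, a Th2 cytokine, read 349.9, 218 and 272 at 60 dpi and 106, 126, 46.5 and 50.03 in sham, a log2 fold change of 1.83 ± 0.30 (adjusted p = 0.000154), again with no overlap. Within sham, Il13 was higher in samples 1 and 2, with totals of 66905 and 105017 counts, than in samples 3 and 4, with 280528 and 182784. Sham samples 1 and 2 also lay above samples 3 and 4 for Ccl22, Ccr9, Nos2, Irf3 and Tnfrsf8, among other rises. The part of probe background in the values of these genes and of Il13 was not tested. Il13 was the rise among 7 tested T cell and granulocyte-macrophage cytokines, of which 1 rose and 1 fell with a median of -0.06. The fall was Csf1, the growth factor of microglia.

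The genes that fell included receptors and regulators with well-known roles in myeloid cells. Hif1a, the oxygen-sensing subunit of hypoxia-inducible factor, read 4.27, 6.55 and 12.5 normalized counts at 60 dpi and 180.1, 161, 149.7 and 132 in sham. No 60 dpi sample was above background, and Hif1a was at least 2.70-fold lower (adjusted p = 4.59e-09). Fcgr3, the low-affinity activating receptor for IgG, read 109.9, 108 and 145 at 60 dpi and 822, 914, 836 and 708 in sham, a log2 fold change of -2.76 ± 0.20 (adjusted p = 4.59e-09). The 3 injured samples lay far below the lowest sham sample and above their own background. Il21r, the interleukin 21 receptor, read 154, 109 and 92.6 at 60 dpi and 360.3, 583, 476 and 366 in sham, a log2 fold change of -1.92 ± 0.21 (adjusted p = 1.01e-06). Nfkb1, the p105 and p50 subunit of NF-kappaB, read 128, 98.2 and 114 at 60 dpi and 280, 385, 415 and 292 in sham, a log2 fold change of -1.60 ± 0.23 (adjusted p = 3.23e-05). Lilrb4, an inhibitory receptor of myeloid cells, read 22.4, 13.9 and 46.3 at 60 dpi, with no sample above background, and 151, 161, 105 and 177 in sham, and was at least 2.57-fold lower (adjusted p = 0.000251). These 5 falls held in every alternative and with every library left out, and for none of them did a 60 dpi sample reach any sample of the first run.

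A further 5 of the 10 largest falls were at background at 60 dpi, where only a bound can be given, and they too held in every alternative and with every library left out. Icam5, an adhesion molecule of neurons, read 17.1, 10.6 and 18.7 normalized counts at 60 dpi and 155, 161, 142 and 62.5 in sham, at least 2.25-fold lower (adjusted p = 8.52e-07). Mapk11, a p38 kinase, read 10.7, 9.82 and 9.79 at 60 dpi and 106, 87.3, 73.2 and 46.4 in sham, at least 1.36-fold lower (adjusted p = 5.23e-06). Cfb is given above. The pro-apoptotic Bax read 25.6, 20.5 and 28.5 at 60 dpi and 50.9, 70.2, 53.5 and 61.8 in sham, at least 1.02-fold lower (adjusted p = 0.00174). Traf2, an adaptor of TNF receptors, read 16.002, 10.6 and 10.7 at 60 dpi and 58.7, 40.5, 33.7 and 39.7 in sham (adjusted p = 0.000278), and its sham mean lay under the 60 dpi limit, so no fold is given. For all of them the groups were separate, with every injured sample below every sham sample.

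Fc receptors fell or did not pass. Of 7 tested Fc receptor genes none rose and 3 fell, with a median log2 fold change of -0.42. The high-affinity receptor Fcgr1 read 531, 478 and 449 normalized counts at 60 dpi and 748, 875, 855 and 745 in sham, a log2 fold change of -0.73 ± 0.17 (adjusted p = 0.00218), and Fcgr4 read 73.6, 66.3 and 51.6 at 60 dpi and 192, 101, 67.4 and 102 in sham, a log2 fold change of -0.82 ± 0.27 (adjusted p = 0.0238). The groups were separate for Fcgr1 and overlapped for Fcgr4. The inhibitory receptor Fcgr2b averaged 1224 ± 186 at 60 dpi and 1022 ± 139 in sham (SD, n = 3 and 4, adjusted p = 0.209), and the shared signalling chain Fcer1g was at -0.42 on the log2 scale (adjusted p = 0.0805). With positive-control factors alone Fcgr3 was the 1 gene called, and with the geometric mean of the housekeeping genes Fcgr3 was called lower and Fcgr2b higher. Fcgr4 also lost its call without 60 dpi samples 2 or 3 or sham sample 1 (adjusted p up to 0.0994).

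Homeostatic genes of microglia fell or did not pass in the reported fit, with 1 exception. Of 19 tested members 7 fell and Tnfrsf11a, the receptor RANK, rose, with a median log2 fold change of -0.20. Beside Fcgr3, Il21r, Cx3cr1 and Gpr183, the falls were in Irf8, a transcription factor needed for microglial identity, in Ly86 (MD-1), a partner of the receptor RP105, and in the collagen receptor Lair1. Irf8 read 245, 209 and 226 normalized counts at 60 dpi and 360.3, 507, 462 and 350.2 in sham, a log2 fold change of -0.89 ± 0.17 (adjusted p = 0.000411). Ly86 read 1122, 930.2 and 949 at 60 dpi and 2191, 2100.1, 1652 and 2125 in sham, a log2 fold change of -1.01 ± 0.16 (adjusted p = 7.33e-05). The groups were separate for both. Lair1 fell by 0.53 on the log2 scale (adjusted p = 0.0343), and Tnfrsf11a rose by 0.63 ± 0.17 (adjusted p = 0.007). Other identity genes did not pass, among them Csf1r at 7558 ± 1118 at 60 dpi and 8853 ± 1777 in sham (SD, n = 3 and 4, adjusted p = 0.321) and the phagocytic receptor Trem2 at 1846 ± 351 and 1643 ± 271 (adjusted p = 0.477). Of the named members Fcgr3 and Il21r passed with positive-control factors alone and the others did not. With the geometric mean of the housekeeping genes 4 of the 19 were called lower and 7 higher, so the direction of the list depended on the scaling. With a library left out, calls were lost for Lair1 without 60 dpi samples 2 or 3 or sham samples 2 or 3 (adjusted p up to 0.167), for Cx3cr1 without 60 dpi samples 2 or 3 or sham samples 2 or 3 (adjusted p up to 0.077) or for Gpr183 without 60 dpi sample 3 (adjusted p up to 0.0633).

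**Figure D3:**
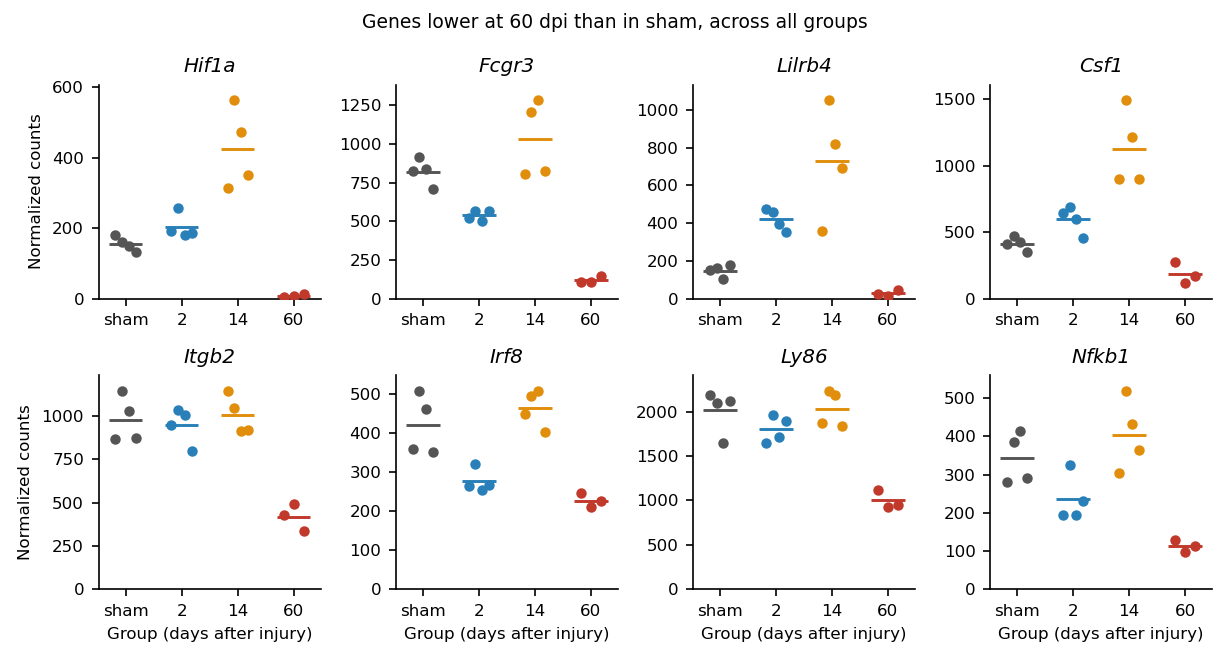
Normalized counts of 8 genes lower at 60 dpi than in sham, in every sample of the series, from sham through 2 and 14 dpi to 60 dpi, each panel with its own scale from 0 and bars at the means. Hif1a, Lilrb4 and Csf1 are above sham at 14 dpi and below it at 60 dpi, and the 60 dpi samples alone came from the second run.

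A few of these genes stood above sham at 14 dpi and below it at 60 dpi. Against 14 dpi, 78 genes were higher (21.7%) and 80 were lower (22.3%) at 60 dpi, and this comparison crosses the runs as well. Hif1a averaged 156 ± 19.98 normalized counts in sham, 425 ± 114 at 14 dpi and 7.76 ± 4.23 at 60 dpi (SD, n = 4, 4 and 3). It was higher than sham at 14 dpi by 1.46 on the log2 scale (adjusted p = 5.92e-05) and lower at 60 dpi than at 14 dpi (adjusted p = 7.68e-11). Lilrb4 averaged 148 ± 31.1 in sham, 729 ± 289 at 14 dpi and 27.5 ± 16.8 at 60 dpi (adjusted p = 7.61e-07 for 60 against 14 dpi). Csf1 averaged 413 ± 51.2 in sham, 1125 ± 286 at 14 dpi and 185 ± 79.9 at 60 dpi, a log2 fold change of -1.16 ± 0.25 over sham (adjusted p = 0.00168) and of -2.61 over 14 dpi (adjusted p = 7.61e-07). Plau, the urokinase that activates plasminogen, averaged 349.8 ± 48.9, 787 ± 282 and 210.3 ± 38.01 in the same order. These 4 were the genes called higher than sham at 14 dpi, where 21.4% of tested genes were, and lower than sham at 60 dpi. Plau was lost with positive-control factors alone, and its fall from sham did not hold without 60 dpi samples 2 or 3 or sham sample 2 (adjusted p up to 0.0958). B2m, Tlr2 and the cytokine Tnf did not pass at 60 dpi, with log2 fold changes over sham of 1.50, 1.47 and 1.0 at 14 dpi and of 0.16, 0.18 and -0.76 at 60 dpi (adjusted p at 60 dpi = 0.493, 0.508 and 0.107).

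NF-kappaB genes split into 4 that rose (23.5%) and 3 that fell (17.6%) among 17 tested, with a median log2 fold change of 0.01. Over all tested genes the shares were 25.1% and 11.1%. Nfkbia, the inhibitor IkappaB alpha, read 4689.5, 3898 and 2942 normalized counts at 60 dpi and 1490.1, 2431, 2229 and 1916 in sham, a log2 fold change of 0.93 ± 0.21 (adjusted p = 0.00205). Rela, the p65 subunit, read 388, 257 and 222 at 60 dpi and 123, 187, 176 and 126 in sham, a log2 fold change of 0.91 ± 0.21 (adjusted p = 0.00262). Ikbke, a kinase of the interferon and NF-kappaB routes, read 71.5, 72.8 and 71.2 at 60 dpi and 19.6, 42.1, 11.8 and 19.9 in sham, a log2 fold change of 1.70 ± 0.36 (adjusted p = 0.00125). Each of the 3 had separate groups, whereas Tbk1, a relative of Ikbke, went the other way. Tbk1 read 88.5, 68.7 and 72.1 at 60 dpi and 189.9, 189, 175 and 107 in sham, a log2 fold change of -1.10 ± 0.20 (adjusted p = 0.000323), and Nfkb2, which makes p52, rose by 0.74 ± 0.22 (adjusted p = 0.0118). Nfkb1, Traf2, Tbk1 and Ikbke passed with positive-control factors alone, and Nfkbia, Rela and Nfkb2 did not. Nfkb2 also lost its call without 60 dpi sample 1 (adjusted p up to 0.078).

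Most Toll-like receptor genes did not pass the test. Of 19 tested 3 rose, namely Tlr8, the pseudokinase Irak3 and the inhibitory receptor Sigirr, and Ly86 fell, with a median log2 fold change of 0.12. Tlr2, Tlr4, the co-receptor Cd14 and the adaptor Myd88 had log2 fold changes of 0.18, 0.12, 0.18 and -0.15 (adjusted p = 0.508, 0.681, 0.562 and 0.676). With the geometric mean of the housekeeping genes 11 of the 19 were called higher, and 2 with positive-control factors alone. Irak3 rose by 1.02 ± 0.33 and Sigirr by 1.38 ± 0.34 on the log2 scale (adjusted p = 0.0228 and 0.00389). For Sigirr, 60 dpi samples 1 and 2 were not above background. Irak3 lost its call without 60 dpi sample 2 or sham samples 3 or 4 (adjusted p up to 0.129).

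In the type I interferon list 6 of 18 tested genes rose (33.3%, against 25.1% of all tested genes) and none fell. Their median log2 fold change was 0.44. Among them were the receptor chain Ifnar1, the RNA sensor Ddx58, the induced genes Ifi35 and Ifitm1, and the factor Irf3. Irf3 read 122, 76.9 and 92.6 normalized counts at 60 dpi and 43.1, 59.2, 26.7 and 30.2 in sham, with separate groups and a log2 fold change of 1.33 ± 0.31 (adjusted p = 0.00259), and it held with every library left out. Without 60 dpi sample 3, 1 of the 18 passed, and with positive-control factors alone 2 passed. With the geometric mean of the housekeeping genes 10 were called higher. Ifnar1 read 537, 441 and 780.5 at 60 dpi and 386, 424, 389 and 259 in sham (adjusted p = 0.00971). The calls did not hold for Ifnar1 without 60 dpi sample 3 (adjusted p up to 0.107), Ddx58 without 60 dpi samples 1 or 3 or sham samples 3 or 4 (adjusted p up to 0.128), Ifi35 without 60 dpi sample 3 (adjusted p up to 0.0925) or Ifitm1 without 60 dpi sample 3 or sham samples 3 or 4 (adjusted p up to 0.0724). Interferon beta itself (Ifnb1) read 92.8, 62.2 and 24.9 at 60 dpi and 25.5, 21.8, 9.62 and 16.2 in sham (adjusted p = 0.0959).

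In the interferon gamma list 7 of 19 tested genes rose (36.8%) and 2 fell (10.5%), with a median of 0.29. Over all tested genes the shares were 25.1% and 11.1%. Beside Psmb9, Tap1 and Cxcl11, the rises included the kinase Jak2, the inducible nitric oxide synthase Nos2 and the adhesion molecule Vcam1, and the falls were Irf8 and Fcgr1. Nos2 read 420.3, 272 and 345 normalized counts at 60 dpi and 227, 246, 89.3 and 119 in sham, with separate groups and a log2 fold change of 1.06 ± 0.33 (adjusted p = 0.0218). Both receptor chains had log2 fold changes below 0, at -0.37 for Ifngr1 and -0.16 for Ifngr2 (adjusted p = 0.0967 and 0.481), as did the induced factor Irf1 at -0.35 (adjusted p = 0.149). Interferon gamma (Ifng) and Cxcl9 were above background in no sample of either group. Cxcl11 and Vcam1 were the rises that passed with positive-control factors alone. With the geometric mean of the housekeeping genes 10 of the 19 were called higher. Calls were lost for Jak2 without 60 dpi samples 1 or 3 or sham sample 4 (adjusted p up to 0.0955) or Nos2 without 60 dpi samples 1 or 3 or sham sample 4 (adjusted p up to 0.0811).

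Of 26 tested JAK-STAT genes 5 rose (19.2%) and 2 fell (7.69%), against 25.1% and 11.1% of all tested genes. The median was 0.10. No rise passed with positive-control factors alone, while 13 of the 26 were called higher with the geometric mean of the housekeeping genes. Jak3, the kinase of the common gamma chain, read 226, 178 and 186 normalized counts at 60 dpi and 117, 153, 97.3 and 87.6 in sham, a log2 fold change of 0.80 ± 0.21 (adjusted p = 0.00492). Stat5b read 254, 214 and 205 at 60 dpi and 109.7, 168, 129 and 114 in sham, a log2 fold change of 0.78 ± 0.17 (adjusted p = 0.00153), and neither gene's groups overlapped. The shared receptor chain Csf2rb fell by 0.86 on the log2 scale (adjusted p = 0.000983) beside Il21r, and Jak2 and Il10rb were among the remaining rises. Il10rb, a receptor chain of the interleukin 10 family, did not hold its call without 60 dpi samples 1 or 3 or sham samples 1, 2 or 4 (adjusted p up to 0.167), and the same was true for Jak2 without 60 dpi samples 1 or 3 or sham sample 4 (adjusted p up to 0.0955).

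In the inflammasome and interleukin 1 list 4 of 12 tested genes rose (33.3%, against 25.1% of all tested genes) and 1 fell. The median log2 fold change was 0.59. Il1rl2, the interleukin 36 receptor, read 163, 109.6 and 124 normalized counts at 60 dpi and 66.6, 95.1, 63.6 and 55.2 in sham, a log2 fold change of 0.93 ± 0.23 (adjusted p = 0.00389). Il1b, the cytokine itself, read 453, 506 and 456 at 60 dpi and 221, 416, 153 and 209.7 in sham, a log2 fold change of 0.92 ± 0.35 (adjusted p = 0.0479), with 1 sham sample close to the injured ones. Casp1, the protease that matures it, was not above background in any 60 dpi sample, at 35.2, 20.5 and 36.5 against 82.2, 65.5, 64.2 and 53.7 in sham, and was at least 1.15-fold lower (adjusted p = 0.00494). Sigirr and Il1r1 were the other rises. Casp1 and Sigirr held both with positive-control factors alone and with every library left out. Sigirr read 64.0, 42.5 and 75.6 normalized counts at 60 dpi, with samples 1 and 2 not above background. It passed the background filter only because 60 dpi sample 3 counted, so its p-value is not independent of the rise. The calls did not hold for Il1b without 60 dpi samples 1, 2 or 3 or sham samples 1, 3 or 4 (adjusted p up to 0.114) or for Il1r1 without 60 dpi sample 3 or sham samples 1, 2, 3 or 4 (adjusted p up to 0.807).

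Tumour necrosis factor superfamily genes rose in 5 of 16 tested cases (31.25%, against 25.1% of all tested genes) and fell in 1, with a median of 0.01. Tnfsf10 (TRAIL) read 160, 135 and 226 normalized counts at 60 dpi and 95.9, 79.5, 48.7 and 38.997 in sham, a log2 fold change of 1.45 ± 0.28 (adjusted p = 0.000538). Tnfsf12 (TWEAK) read 241, 179 and 257 at 60 dpi and 123, 108, 79.7 and 62.5 in sham, a log2 fold change of 1.31 ± 0.22 (adjusted p = 0.000154). Both had separate groups, and Tnfsf12 was lost with positive-control factors alone. The remaining calls were Tnfrsf8, Tnfrsf11a, Cd40 and Traf2, with the limits of Cd40 given above (adjusted p up to 0.13 with a library left out). Tnf averaged 541 ± 224 at 60 dpi and 919 ± 191 in sham (SD, n = 3 and 4).

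Of 13 tested apoptosis and cell cycle genes 4 fell and 1 rose, with a median log2 fold change of -0.22, and the geometric mean of the housekeeping genes gave 2 lower and 4 higher. Abl1, a tyrosine kinase that responds to DNA damage, read 129, 93.3 and 105 normalized counts at 60 dpi and 170.3, 268, 236 and 187 in sham, a log2 fold change of -0.99 ± 0.19 (adjusted p = 0.000526). The rise was Cradd, an adaptor of caspase 2, at 116, 78.5 and 85.4 at 60 dpi and 43.1, 49.9, 25.7 and 30.2 in sham, a log2 fold change of 1.37 ± 0.29 (adjusted p = 0.00114). Groups did not overlap for either gene. Bid and Cul9, the falls beside Bax and Abl1, were lost when positive controls alone set the scale, and for Bid without 60 dpi samples 1, 2 or 3 or sham samples 2 or 3 (adjusted p up to 0.102) or Cul9 without 60 dpi samples 1, 2 or 3 or sham samples 2 or 3 (adjusted p up to 0.0952).

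Of 9 tested TGF-beta genes 2 rose (22.2%, against 25.1% of all tested genes) and 1 fell, with a median of 0.07. With the geometric mean of the housekeeping genes 6 of the 9 were called higher. The ligand Tgfb2 read 85.3, 56.5 and 107 normalized counts at 60 dpi and 56.8, 31.2, 20.9 and 17.7 in sham, a log2 fold change of 1.49 ± 0.39 (adjusted p = 0.00609), with 60 dpi sample 2 within the sham range. Smad3, a transcription factor of the pathway, read 282, 209 and 247 at 60 dpi and 376, 455, 365 and 291 in sham, a log2 fold change of -0.59 ± 0.16 (adjusted p = 0.00734). The matrix protein Tgfbi rose by 0.61 ± 0.21 (adjusted p = 0.0293), and the receptors Tgfbr1 and Tgfbr2 had log2 fold changes of -0.20 and 0.12 (adjusted p = 0.458 and 0.611). Smad3 and Tgfbi were lost with positive-control factors alone, and the calls did not hold for Smad3 without 60 dpi sample 2 (adjusted p up to 0.0507) or for Tgfbi without 60 dpi samples 1, 2 or 3 or sham samples 3 or 4 (adjusted p up to 0.0855).

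Immune receptors that signal through ITAM motifs or inhibit them moved both ways, with 6 rises and 4 falls among 17 tested and a median of 0.03. Trem1, an amplifier of myeloid inflammation, read 87.5, 205 and 129.9 normalized counts at 60 dpi and 39.2, 42.1, 12.3 and 33.8 in sham, a log2 fold change of 2.22 ± 0.55 (adjusted p = 0.00524). Slamf7, a self-ligand receptor, was not above background in sham, at 67.2, 55.6 and 48.9 at 60 dpi against 33.3, 37.4, 8.55 and 10.3 (adjusted p = 0.00931). Its 60 dpi sample 3 was also not above background, so no fold is given. Cd48, the ligand of Cd244, rose by 0.78 ± 0.19 on the log2 scale (adjusted p = 0.00366). Cd244 was not above background at 60 dpi, at 26.7, 25.4 and 20.5 against 86.2, 74.8, 33.1 and 42.7 in sham, and was at least 1.03-fold lower (adjusted p = 0.007). Tyrobp, the signalling adaptor of Trem1 and Trem2, read 6102, 5457 and 3724 at 60 dpi and 3143, 4317, 3805 and 3623 in sham, a log2 fold change of 0.45 ± 0.17 (adjusted p = 0.0403), with overlapping groups. The lectin Cd22 and the adaptor Hcst were the remaining rises, and Lilrb4, Lair1 and Ceacam1 the remaining falls. Trem1, Slamf7, Lilrb4 and Cd244 passed with positive-control factors alone and the other 6 did not. The calls did not hold for Tyrobp without 60 dpi samples 1 or 2 or sham samples 1, 3 or 4 (adjusted p up to 0.201), Cd22 without 60 dpi sample 1 (adjusted p up to 0.0671), Hcst without 60 dpi samples 1 or 2 or sham samples 1, 3 or 4 (adjusted p up to 0.201), Lair1 without 60 dpi samples 2 or 3 or sham samples 2 or 3 (adjusted p up to 0.167) or Ceacam1 without 60 dpi samples 1 or 2 or sham samples 2 or 3 (adjusted p up to 0.124).

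**Figure D4:**
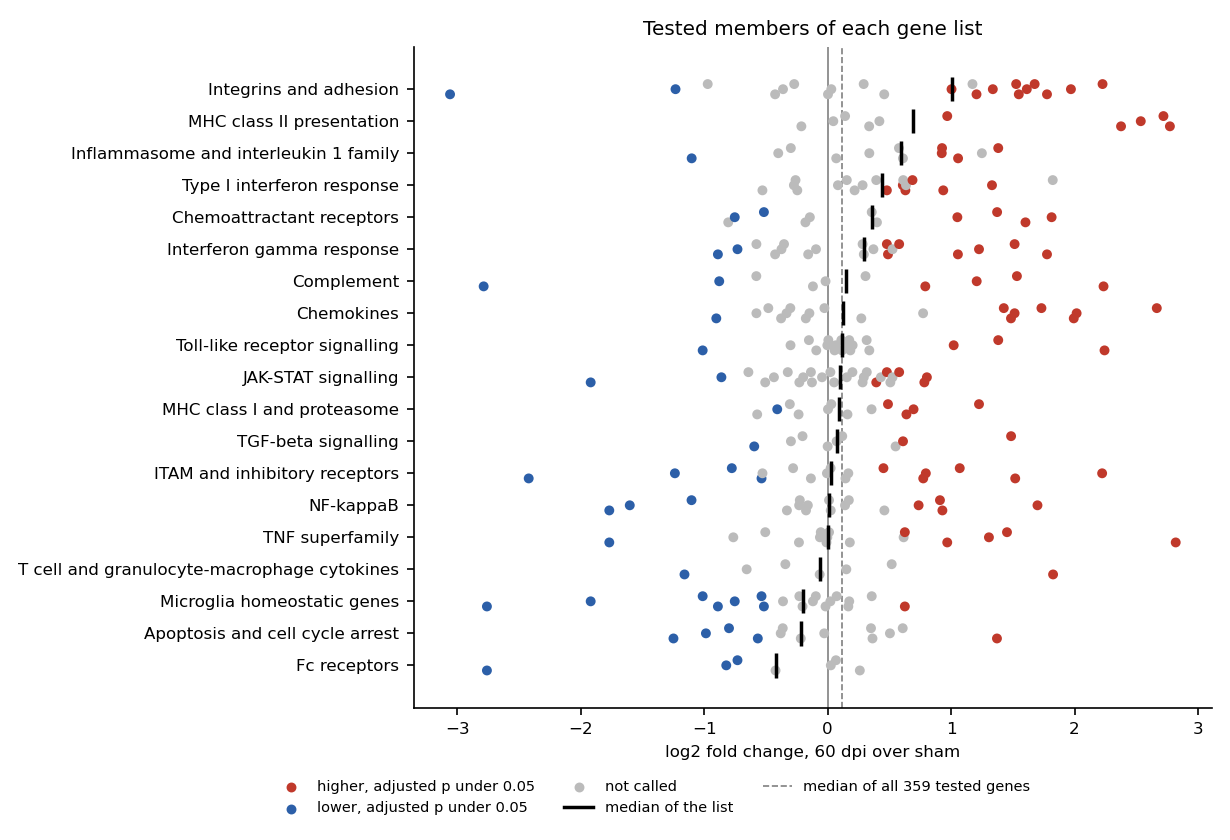
Log2 fold change of 60 dpi over sham for each tested member of 19 gene lists, coloured by call, with a bar at the median of the list and a dashed line at 0.12, the median of all 359 tested genes. Integrins and adhesion (median 1.0) and MHC class II presentation (0.69) lie farthest to the right and Fc receptors (-0.42) farthest to the left; for genes at background in a group the plotted value depends on the fit.

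Adhesion genes had the highest median of the 19 pathway lists, 1.0 over 21 tested members, of which 10 rose and 2 fell. Vcam1, the endothelial ligand of very late antigen 4, read 162, 135 and 181 normalized counts at 60 dpi and 37.2, 53.01, 60.95 and 32.4 in sham, a log2 fold change of 1.78 ± 0.27 (adjusted p = 7.33e-05). Itga4, the alpha chain of very late antigen 4, read 66.1, 58.9 and 64.1 at 60 dpi and 35.2, 32.7, 17.1 and 19.9 in sham, a log2 fold change of 1.34 ± 0.32 (adjusted p = 0.00333). Itgax, the CD11c chain, read 106, 98.2 and 112 at 60 dpi and 37.2, 43.7, 25.7 and 34.6 in sham, a log2 fold change of 1.61 ± 0.27 (adjusted p = 0.000154). Samples did not overlap for any of the 3. Itgb2, the beta chain with which Itgam, Itgal and Itgax pair, went the other way, at 426, 490.1 and 334 at 60 dpi and 865, 1144, 1027 and 876 in sham, a log2 fold change of -1.23 ± 0.18 (adjusted p = 3.23e-05). Itgam, the CD11b chain by which the cells were sorted, averaged 1557 ± 222 at 60 dpi and 1999 ± 299 in sham (SD, n = 3 and 4, adjusted p = 0.103). Cd97, an adhesion receptor of leukocytes, rose by 1.68 ± 0.28 on the log2 scale (adjusted p = 0.00017). Rises in Itgal and the hyaluronan receptor Cd44 did not hold for Itgal without 60 dpi samples 2 or 3 or sham samples 3 or 4 (adjusted p up to 0.123) or for Cd44 without 60 dpi sample 2 or sham sample 1 (adjusted p up to 0.14), and Itgal was also lost with positive-control factors alone.

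Several of the adhesion genes mark endothelium, and markers of other cells moved with 60 dpi. Of 9 tested endothelial and mural markers 7 rose, with a median log2 fold change of 1.55. Cdh5, the cadherin of endothelial junctions, read 139, 88.4 and 316 normalized counts at 60 dpi and 25.5, 31.2, 53.5 and 38.3 in sham, a log2 fold change of 2.23 ± 0.41 (adjusted p = 0.00044). Pecam1 (CD31) read 333, 193 and 625 at 60 dpi and 116, 95.1, 182 and 123 in sham, a log2 fold change of 1.55 ± 0.38 (adjusted p = 0.00518). Abcb1a, an efflux pump of the blood-brain barrier, read 395, 203 and 930 at 60 dpi and 114, 73.3, 153 and 106 in sham, a log2 fold change of 2.17 ± 0.51 (adjusted p = 0.00466). In all 3, and in the summed list, 60 dpi sample 3 was the highest and sample 2 the lowest of the injured samples, and the groups did not overlap. Without sample 3 all 3 still passed, at log2 fold changes of 1.56 for Cdh5, 1.0 for Pecam1 and 1.40 for Abcb1a (adjusted p = 0.00549, 0.0391 and 0.025). The summed endothelial list was 2424, 1572 and 4078 normalized counts at 60 dpi and 1046, 984, 1300 and 1061 in sham. The other rises were Icam2, Vcam1, Cxcl12 and Ifitm1, and without 60 dpi sample 3 the number was 5. Icam2 and Pecam1 were lost with positive-control factors alone, as was Ifitm1, and the calls did not hold for Icam2 without 60 dpi sample 3 (adjusted p up to 0.0506) or for Ifitm1 without 60 dpi sample 3 or sham samples 3 or 4 (adjusted p up to 0.0724). Endothelial cells carry little CD11b, and the part of these markers in the rises of the adhesion genes, of Cxcl12 and of Ifnar1, which was also highest in sample 3, was not tested.

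Monocyte markers rose in 8 of 10 tested cases, with a median log2 fold change of 1.09. Their sum was 1180, 1316 and 1756 normalized counts at 60 dpi and 789, 859, 589 and 710 in sham, without overlap. A large part of it was Fn1, at 403, 308 and 868 at 60 dpi and 278, 257, 263 and 248 in sham. Fn1 was highest in 60 dpi sample 3 and lowest in sample 2 of the injured samples, as the endothelial markers were. Ccr2 and Itga4 held with every library left out. A further 5 did not, with losses for Fn1 without 60 dpi sample 3 or sham samples 1, 2, 3 or 4 (adjusted p up to 0.297), Cd44 without 60 dpi sample 2 or sham sample 1 (adjusted p up to 0.14), Tgfbi without 60 dpi samples 1, 2 or 3 or sham samples 3 or 4 (adjusted p up to 0.0855), Cfp without 60 dpi samples 1, 2 or 3 or sham samples 1, 3 or 4 (adjusted p up to 0.149) or Itgal without 60 dpi samples 2 or 3 or sham samples 3 or 4 (adjusted p up to 0.123), and 4 of the 10 passed without 60 dpi sample 2 or without sample 3. Border macrophage markers rose in 3 of 4 tested cases, among them the scavenger receptor Cd163 at 202, 151 and 93.4 at 60 dpi and 64.6, 35.9, 38.5 and 22.8 in sham, a log2 fold change of 1.92 ± 0.40 (adjusted p = 0.00112), beside Ccl7 and Ccl11. Their sum was 829, 721 and 476 at 60 dpi and 292, 189, 160 and 193 in sham, so the order of the injured samples was the reverse of that for endothelial markers in samples 1 and 3. Monocytes and border macrophages also carry CD11b and can express class II genes, and the gate on low to intermediate CD45 is meant to leave out cells with high CD45, as these cells mostly are. The part of these cells in the class II rise was not tested.

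Neutrophil transcripts varied widely between libraries. S100a8, a calprotectin subunit, read 4469, 19854 and 5647 normalized counts at 60 dpi and 296, 214, 91.96 and 3595 in sham, with a log2 fold change of 3.25 ± 1.28 and an adjusted p of 0.0677. The partner S100a9 read 3539.6, 16022 and 4253 at 60 dpi and 378, 295, 114 and 4179 in sham (adjusted p = 0.121). In both, 60 dpi sample 2 stood above the other injured samples and sham sample 4 above the other shams. Without sham sample 4 both passed, at log2 fold changes of 5.67 for S100a8 and 4.94 for S100a9 (adjusted p = 0.0037 and 0.00892), and without 60 dpi sample 2 the values were 2.26 and 1.65 (adjusted p = 0.235 and 0.4). S100a8 and S100a9 together took 4.37%, 19.3% and 6.55% of the endogenous counts at 60 dpi and 0.514%, 0.31%, 0.137% and 5.78% in sham. Of 9 tested neutrophil markers 3 rose, Ltf and Trem1 among them, and Ceacam1 fell, with a median of 1.97, and the neutrophil chemokine receptors Cxcr1 and Cxcr2 were above background in no sample of either group. Ltf, the granule protein lactoferrin, read 25.6, 67.9 and 47.2 at 60 dpi and 23.5, 15.6, 3.74 and 19.9 in sham (adjusted p = 0.0468). Its 60 dpi samples 1 and 3 were not above background, and Ltf passed the background filter only because 60 dpi sample 2 counted. Neither Ltf nor Ceacam1 held its call throughout, with losses for Ltf without 60 dpi samples 2 or 3 or sham samples 2, 3 or 4 (adjusted p up to 0.173) and for Ceacam1 without 60 dpi samples 1 or 2 or sham samples 2 or 3 (adjusted p up to 0.124). Trem1, C3 and Cybb were also highest in 60 dpi sample 2, and their calls held without it. Samples 1 and 3 carried S100a8 and S100a9 too, so leaving out sample 2 does not remove neutrophil RNA. The part of neutrophil RNA in these rises was not tested.

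**Figure D5:**
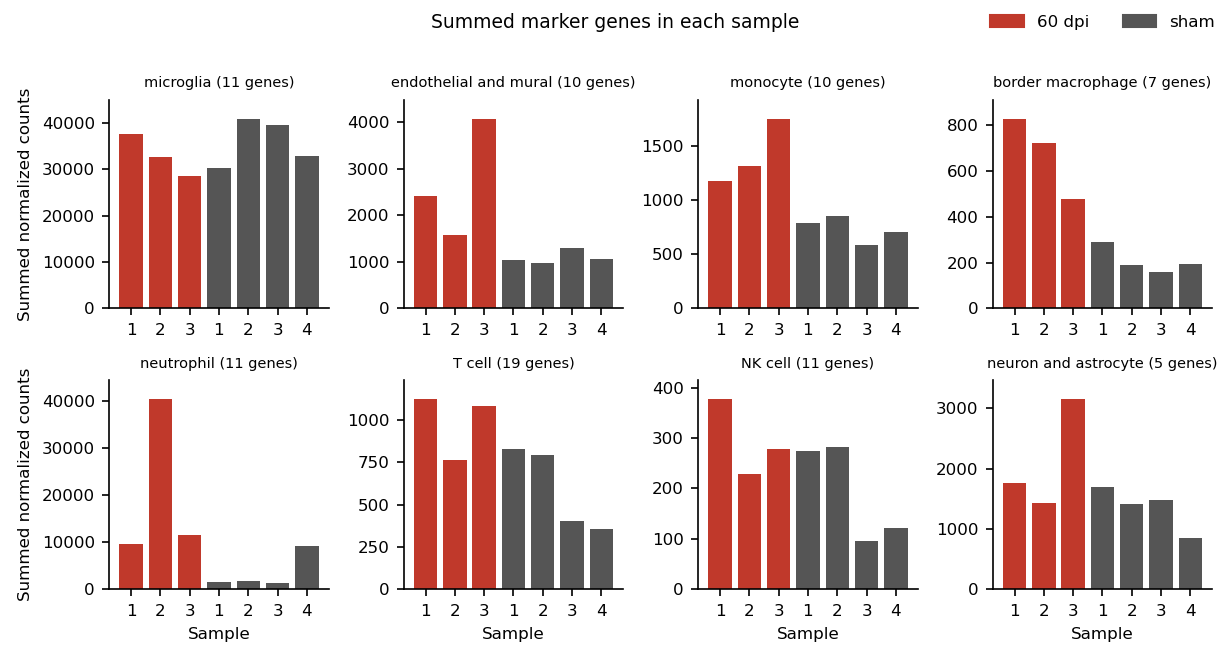
Summed normalized counts of the marker genes of 8 cell types in each sample, 60 dpi (red) left of sham (grey), each panel with its own scale from 0. Endothelial, monocyte and border macrophage sums at 60 dpi lie above every sham sample, the microglial sums overlap, and the neutrophil sum is highest in 60 dpi sample 2.

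Lymphoid markers were mostly at background. Cd3d, a chain of the T cell receptor complex, read 166, 116 and 147 normalized counts at 60 dpi and 31.3, 70.2, 22.5 and 30.2 in sham, a log2 fold change of 1.94 ± 0.34 (adjusted p = 0.000201). Its partner Cd3e, the co-receptors Cd8a and Cd8b1 and the kinase Lck were above background in no sample of either group. Of 7 tested T cell markers 2 rose, the other being Lef1, whose call was lost without 60 dpi sample 3 (adjusted p up to 0.0969). The summed list was 765 to 1121 at 60 dpi and 357 to 830 in sham, with overlap. Of 3 tested natural killer markers Klrk1 rose, with the call lost without 60 dpi samples 1 or 3 or sham samples 3 or 4 (adjusted p up to 0.109). Klrk1 read 66.1, 42.5 and 65.9 at 60 dpi, with sample 2 not above background. It passed the background filter only because its 60 dpi samples counted. Of 2 tested B cell markers the transcription factor Pou2f2 fell, with the call lost with positive-control factors alone and without 60 dpi sample 2 (adjusted p up to 0.0565). The dendritic markers Itgax and Ccl22 rose among 3 tested, the platelet marker Ppbp was the 1 tested of its list, and the 1 tested oligodendrocyte gene did not pass.

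Of 5 tested neuron and astrocyte markers 2 rose, Clu and the amyloid precursor App, and Icam5 fell. App read 1436, 1212 and 2180.3 normalized counts at 60 dpi and 985, 864, 999 and 656 in sham, a log2 fold change of 0.88 ± 0.22 (adjusted p = 0.00494), and it was highest in 60 dpi sample 3, as Clu was. Without that sample neither passed, at an adjusted p of up to 0.552 for Clu and 0.0546 for App. The neural cell adhesion molecule Ncam1 read 86.4, 71.995 and 113 at 60 dpi and 323, 214, 140.1 and 52.2 in sham (adjusted p = 0.0946), so the sham samples themselves differed in neural transcripts. Icam5 was likewise lowest in sham sample 4. Microglial marker sums overlapped, with 1 rise (Tyrobp) and 2 falls (Cx3cr1 and Irf8) among 10 tested, and a sum of 28582 to 37586 normalized counts at 60 dpi and 30152 to 40864 in sham.

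The study singled out 21 panel genes at 60 dpi, a choice made on these samples, so their counts are no independent evidence of direction. Of the 17 that were tested 12 rose and 3 fell. Hif1a, Bax and Itgb2 were the falls. Psmb7, a proteasome subunit, was not above background in any 60 dpi sample, at 56.5, 43.4 and 54.3 normalized counts against 84.2, 67.04, 72.2 and 81.7 in sham, and did not pass (adjusted p = 0.0516). C1qbp, a mitochondrial protein that binds C1q, had a log2 value of -0.58 and did not pass either (adjusted p = 0.0615). The cytokines Il3 and Il21 were untested, being above background in no sample of either group. Il3 read 53.3, 38.5 and 42.7 normalized counts at 60 dpi and 11.7, 14.03, 4.28 and 3.68 in sham, and Il21 read 36.3, 35.2 and 48.9 at 60 dpi and 13.7, 23.4, 5.35 and 9.57 in sham. Both were numerically higher in every injured sample, below the background limit of the second run. Cd5 and Fadd were untested for the same reason. Of the 12 rises Cd74, Tnfrsf8, Irf3, Cd48, Vcam1 and Tnfsf12 held with every library left out.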

How the data were processed

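The authors deposited estimated counts of each probe, the raw nCounter reporter counts exported from the lane files without normalization, for 15 samples of sorted microglia. All 575 probe rows were whole numbers. The authors also deposited a normalized signal made with NanoStringNorm, the raw count minus the mean of the negative controls, floored at 0, and scaled so that the housekeeping sum was equal in all samples. It served as an alternative only. Their test was NanoStringDiff, whose results were not used here, and there were 0 columns of other series.

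Raw counts were fitted over all 15 samples in R 4.3.3 with the quasi-likelihood test of edgeR 4.0.16 (robust). Offsets were the positive-control factor times the median ratio of the 14 housekeeping genes, 0.511 to 1.87 per sample. Genes above the mean plus 2 SD of the 8 negative controls in at least 3 samples were tested, and the threshold was a Benjamini-Hochberg adjusted p of 0.05. Run could not be a term. The fit was tested on simulated counts. DESeq2 1.42.0 and limma 3.58.1 gave alternatives, beside other scalings, other filters and each library left out. A bound fold set the higher group's mean against the lower group's mean background limit.

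Named genes were called members of the gene lists and marker lists, the 10 largest rises and 10 largest falls whose groups did not overlap, the genes singled out by the study, and members of a list that did not pass where only called members would otherwise describe it. Members and lists were chosen with earlier results of these data known. Promoters came from a RefSeq table of GRCm38.p6. A few genes are not reported here.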

Additional observations from a re-analysis of the deposited data

Results flagged for a closer look

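In the sham group 13 of 291 named genes (4.47%) had 1 sample so far from the other 3 that its gap to the nearest passed Dixon's critical value, and chance alone gives this in about 1 in 20 groups. Sham sample 4 was far above the others for 3 neutrophil genes. S100a8 was at 3595 normalized counts there, with the next sample at 296 (ratio of gap to range 0.942), S100a9 at 4179, with the next at 378 (0.935), and Camp, a granule peptide, at 691, with the next at 49.0 (0.947). The same sample was lowest for the receptor Ltbr (0.83). Sham sample 2 was highest for the chemokine Cxcl3 (0.93), the kinase Jak1 (0.934), the transcription factors Hlx (0.862) and Cebpb (0.839), and the cytokine BAFF, Tnfsf13b (0.86). Sham sample 1 was highest for Irf7 (0.888) and Cd22 (0.841), and sham sample 3 was lowest for the interferon-induced Ifi204 (0.866) and for Ly86 (0.831).

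The 60 dpi samples differed from the 14 dpi samples, with 78 genes higher and 80 lower at 60 dpi by edgeR's quasi-likelihood test. A set of 4 genes was called higher than sham at 14 dpi and lower than sham at 60 dpi. On the log2 scale of 60 dpi over 14 dpi, Csf1 was at -2.61 and Plau at -1.90. Hif1a and Lilrb4 were above background in no 60 dpi sample, so their fitted values of -5.73 and -4.72 depend on the fit. Measured as 14 dpi means against the mean 60 dpi background limit, Hif1a was at least 7.38-fold and Lilrb4 at least 12.6-fold lower at 60 dpi than at 14 dpi. Run and time point coincide in this comparison and cannot be told apart.

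Outside the tested genes, the negative control NEG_B averaged 60.7 counts at 60 dpi, against 7 to 10 counts in sham. Of the untested genes, Ccl24, an eosinophil attractant, and Il28a, an interferon lambda, were above background in 2 of 3 samples at 60 dpi, and Il17a and Tgfb3 in 1 of 3, all with 0 sham samples above background.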

How the results depend on the processing

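Scaling moved the counts most. Against sham, the 90 higher genes became 48 with positive-control factors alone, 172 with the geometric mean of the housekeeping genes and 49 with a mean of at least 100 normalized counts, a filter chosen after seeing the data that left 198 genes. The 40 lower genes became 67 with TMM factors, 18 with positive-control factors alone, 21 with the geometric mean and 77 with DESeq2 and its size factors. Against 14 dpi, the 78 higher genes became 36 with positive-control factors alone, 143 with the geometric mean and 34 with the filter at 100, and the 80 lower genes became 44 and 47 with the first 2 of these. The median log2 fold change of 0.12 became -0.13 with positive-control factors alone and 0.51 with the geometric mean, under which C1qa turned to 0.36. Without NEG_B in the background limit 365 genes were tested, with 98 higher and 40 lower. With each library left out, 69 to 91 genes were higher and 27 to 44 lower than sham, and 63 to 77 higher and 60 to 87 lower than 14 dpi. Named higher genes kept their call in 1146 results under these alternatives and lost it in 153, and in 509 and 121 with a library left out. For named lower genes the numbers were 528 and 61, and 231 and 49. Named genes that did not pass became called in 187 results under alternatives and 20 with a library left out. No paired analysis was possible because the labels and columns carry no replicate numbers, and the numbers used here follow record order. Depth limits genes below the background limit to bounds.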
